A study of Homo sapiens with 12 samples.

Results

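Gene expression was compared between 2 cell lines of T-cell acute lymphoblastic leukaemia (T-ALL) under the same drug: 3 libraries of Molt-4 and 3 of Jurkat, all treated with chidamide. These are 6 of the 12 libraries of the study, and the other 6 are 3 untreated libraries of each line, which served to ask which line differences remained, appeared or vanished under the drug. All genes with at least 1 FPKM (fragments per kilobase of transcript, scaled to the mapped fragments of a library) in 3 or more of the 6 treated libraries were tested, 13597 of the 25146 in the deposited table. Both lines grew in RPMI 1640 with 10% fetal bovine serum. The treated groups received chidamide at 2 µM for 48 h per the treatment protocol, although each treated library has its own time label, 48 h for replicate 1, 49 h for replicate 2 and 50 h for replicate 3, and time and replicate number cannot be told apart. The untreated groups received none. Library names begin with J or M, taken here to mean Jurkat or Molt-4 because the growth protocol mentions no other line, and the identity of the cultures was not checked independently. Each line is an established cell line, and the labels do not say whether the replicates were grown separately, so the p-values reflect the spread among these libraries, which may be technical.

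T-ALL arises from immature T cells of the thymus and often carries activating changes in the receptor NOTCH1 together with misplaced transcription factors such as TAL1, LMO1, LMO2 or HOX proteins. Chidamide, also named tucidinostat, belongs to the benzamides and blocks the class I histone deacetylases HDAC1, HDAC2 and HDAC3 and the class IIb enzyme HDAC10. Histone deacetylases remove acetyl groups from histones and other proteins, and inhibitors of them are known to change the transcription of many genes in both directions. Cell lines of one leukaemia type can differ widely in gene activity, and each derives from a separate leukaemia.

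All values below are deposited FPKM, and all differences are on the scale log2(FPKM + 1), given with their standard error as Molt-4 minus Jurkat where they carry a sign. A difference was called at a Benjamini-Hochberg adjusted p under 0.05 in limma, and 2-fold stands for a log2 difference of at least 1. On this scale the change of low genes is understated. The treated libraries summed to 698435 to 711351 FPKM in Jurkat and 763241 to 794246 in Molt-4, and the read depth behind them is unknown. Genes with at least 1 FPKM numbered 12567 to 12606 in treated Jurkat and 13222 to 13228 in treated Molt-4, against 11643 to 11989 in the untreated libraries. The correlation of log2 values was 0.992 to 0.994 within a treated group and 0.843 to 0.844 between the treated lines. Among the untreated libraries, Jurkat replicate 3 stood apart from its group, with an SD of the log2 ratios of 0.325 to 0.329 against 0.225 to 0.253 for the other untreated pairs. In untreated Molt-4 replicate 3 the 7SL RNA genes took 10.1% of the summed FPKM, against at most 4.15% in the other untreated libraries. Each count and each named gene was therefore also computed without each library in turn.

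The labels were checked against marker genes before the comparison. T-lineage genes were detected in all 12 libraries. CD3D, a chain of the T-cell receptor complex, read 539, 475 and 503 FPKM in treated Jurkat and 346, 321 and 327 in treated Molt-4. The libraries labelled Molt-4 also carried a broad set of red cell genes. HBG2, a fetal gamma-globin, ranked 1, 3 and 2 among all genes in the 3 treated Molt-4 libraries, and the globin genes together took 3.24% to 3.32% of the summed FPKM there. Their share was 1.28% to 1.39% in untreated Molt-4 and at most 0.0129% in any Jurkat library. Of the 32 erythroid and megakaryocyte markers, 28 had at least 1 FPKM in all 3 treated Molt-4 libraries and 10 in all 3 treated Jurkat libraries. Their summed level was 26399.5 to 27097 FPKM in treated Molt-4 and 196 to 285 in treated Jurkat. The embryonic globin gene HBZ was listed at 0 in every Jurkat library, and the platelet genes PF4 and GP9 were at 0 in all treated libraries of both lines. Epithelial markers had at least 1 FPKM in all 3 libraries for 10 of 15 genes in treated Molt-4 and 3 of 15 in treated Jurkat, and summed to 356 to 366 and 42.4 to 45.9 FPKM. Myeloid and granulocyte markers summed to 1610.4 to 1673 FPKM in treated Molt-4 and 12.9 to 18.4 in treated Jurkat, with RNASE3 at 0 in treated Molt-4. Most of the treated Molt-4 sum came from the single gene PRG2, and untreated Molt-4 summed to 29.05 to 32.39 FPKM. Of these 23 markers, 10 had at least 1 FPKM in all 3 treated Molt-4 libraries and 4 in all 3 treated Jurkat libraries. In RNA from a whole culture, fewer cells of a type and less RNA per cell cannot be told apart, and whether 1 or more cell populations gave these reads was not tested.

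**Figure D1:**
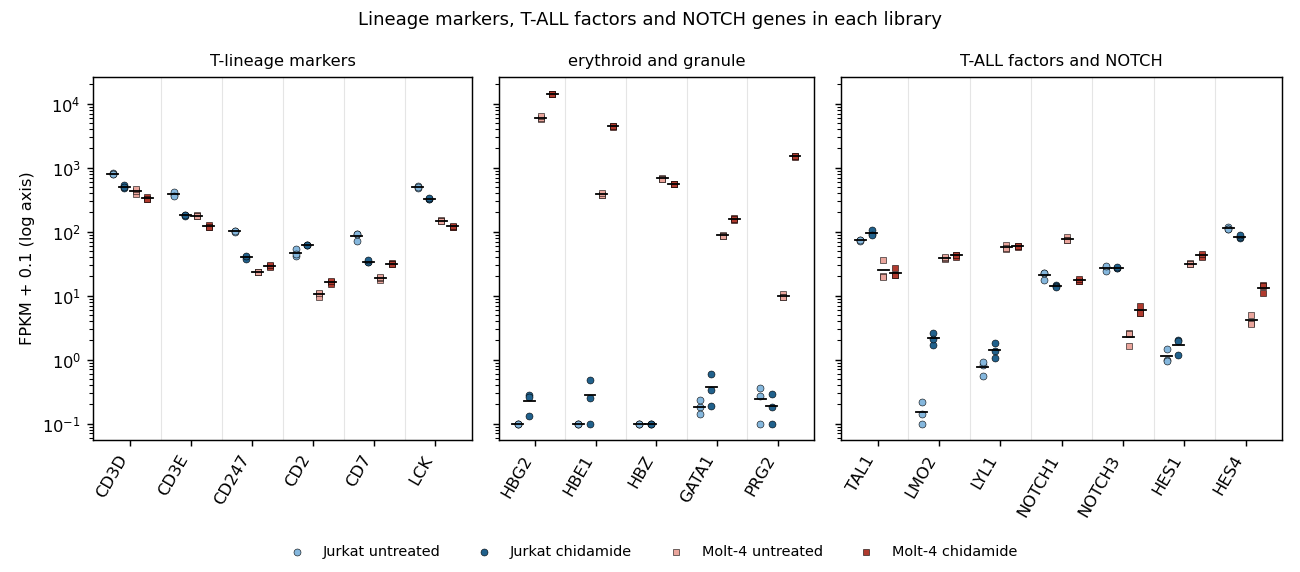
FPKM + 0.1 of single T-lineage, erythroid and granule, and T-ALL and NOTCH genes on a log axis, with 1 point per library, coloured by group, and a short line at each group mean. Each of the 5 erythroid and granule genes plotted is higher in every library labelled Molt-4 than in any labelled Jurkat, with PRG2 far lower in untreated than in treated Molt-4, and the T-lineage genes lie above 1 FPKM in all 12 libraries.

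Under chidamide the lines differed in most genes. Of the 13597 tested, 9458 were called (69.6%), 4321 higher in Molt-4 (31.8%) and 5137 higher in Jurkat (37.8%). A difference of at least 2-fold was called in 2853 genes (21.0%), 1751 of them higher in Molt-4 (12.9%) and 1102 higher in Jurkat (8.10%). The 3 libraries of one line lay wholly above those of the other for 10349 genes (76.1%), with Molt-4 above in 4734 (34.8%) and Jurkat above in 5615 (41.3%). Without the drug, the same genes gave 8904 calls (65.5%), with 3780 higher in Molt-4 (27.8%) and 5124 higher in Jurkat (37.7%). Of 2634 untreated differences of at least 2-fold (19.4%), 1273 genes were higher in Molt-4 (9.36%) and 1361 in Jurkat (10.0%). The difference itself changed between the conditions for 4376 genes (32.2%), in 2733 cases toward Molt-4 (20.1%) and in 1643 toward Jurkat (12.1%). In all, 983 tested genes had at least 1 FPKM in all 3 treated Molt-4 libraries and in no treated Jurkat library, while 358 showed the opposite and 11511 passed in all 6.

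The split between the lines depends on the scale, since the median difference of all genes was -0.07 as deposited, 0.02 after median-of-ratios scaling, -0.12 after quantile normalization and -0.20 after setting equal totals without the 7SL genes. Of all calls, 45.7% were higher in Molt-4 as deposited, 52.5% after median-of-ratios scaling, 41.7% after quantile normalization and 36.2% with equal totals. Of the 2-fold calls the share was 61.4% as deposited, 66.9%, 49.1% and 51.0%. The larger number of 2-fold genes in Molt-4 therefore held as deposited, by median of ratios and, narrowly, with equal totals, and turned over by quantile normalization with 1528 against 1587 genes.

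**Figure D2:**
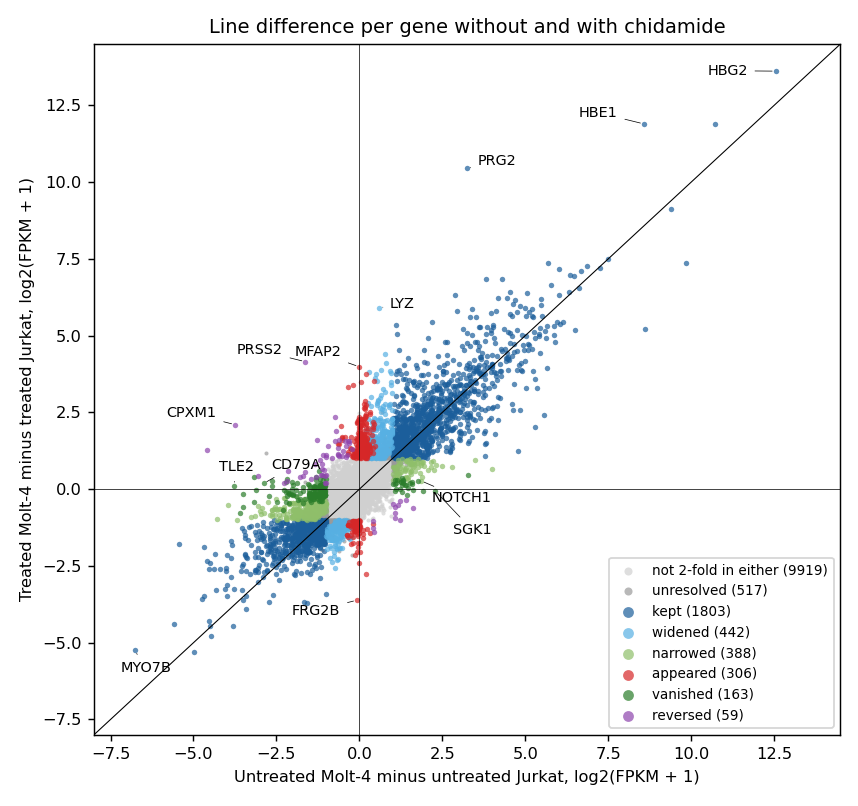
Line difference (Molt-4 minus Jurkat, log2(FPKM + 1)) of each tested gene without chidamide on the x axis and with chidamide on the y axis, coloured by class. Genes that kept their difference lie along the diagonal, and the globins and PRG2 sit at the upper end of the treated axis.

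Most 2-fold line differences remained. In 1803 genes the difference was at least 2-fold and called in both conditions in the same direction (13.3% of those tested), 1098 higher in Molt-4 (8.08%) and 705 higher in Jurkat (5.18%). These make up 63.2% of the 2-fold differences under the drug and 68.5% of those without it. For 1065 of them (7.83%) no change was called, 592 higher in Molt-4 (4.35%) and 473 in Jurkat (3.48%). Another 372 (2.74%) were larger under chidamide, 323 of them higher in Molt-4 (2.38%) and 49 in Jurkat (0.360%). The 366 (2.69%) that were smaller split into 183 for Molt-4 (1.35%) and 183 for Jurkat (1.35%). Across genes the treated and untreated differences correlated with Pearson's r of 0.845 and Spearman's rho of 0.791 (13597 genes, which are not independent and share their normalization).

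A further 442 genes (3.25%) widened, being called in the same direction in both conditions but at least 2-fold only with the drug, 284 higher in Molt-4 (2.09%) and 158 higher in Jurkat (1.16%). In 306 genes (2.25%) a 2-fold difference appeared where none was called without the drug, 224 higher in Molt-4 (1.65%) and 82 higher in Jurkat (0.603%). Conversely, 388 genes (2.85%) narrowed to under 2-fold, 79 of them higher in Molt-4 (0.581%) and 309 in Jurkat (2.27%). The difference vanished, with the call lost and the change called, in 163 genes (1.20%), 28 of them higher in Molt-4 (0.206%) and 135 in Jurkat (0.993%). The direction turned in 59 genes (0.434%), with 47 ending higher in Molt-4 (0.346%) and 12 in Jurkat (0.0883%). Another 517 genes (3.80%) were 2-fold in 1 condition without meeting any of these definitions and are named unresolved in the plot of classes, 177 higher in Molt-4 (1.30%) and 340 in Jurkat (2.50%). By group means, the larger move in the 224 genes that appeared in Molt-4 was a higher level in treated Molt-4 in 207 and a lower level in treated Jurkat in 17. In the 82 that appeared in Jurkat it was a higher level in treated Jurkat in 75. In the 135 Jurkat differences that vanished it was a higher level in treated Molt-4 in 96 and a lower one in treated Jurkat in 39. These last counts describe means, and the response within a line was not tested here.

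**Figure D3:**
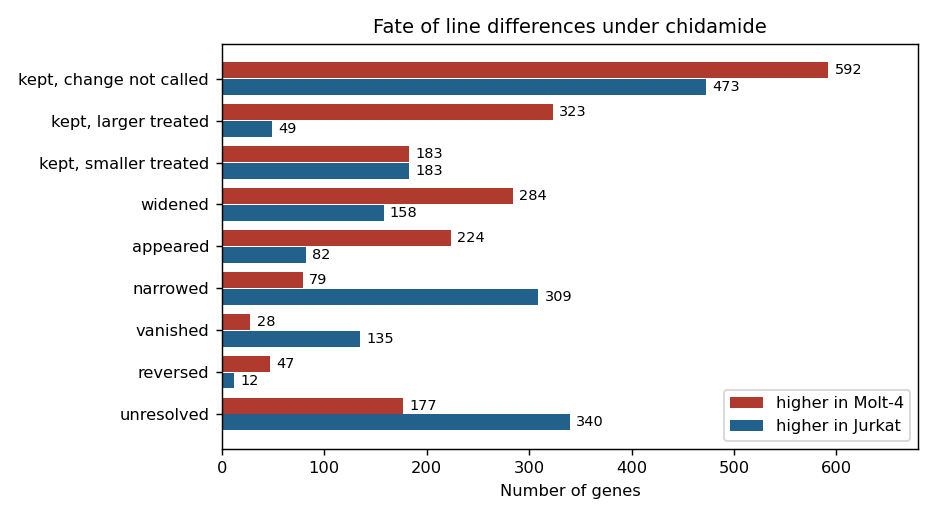
Number of genes in each class of line difference, by the line in which the gene was higher under chidamide (for narrowed and vanished, and unresolved ones that were 2-fold only without it, in the untreated libraries). As deposited, appeared and widened genes were mostly higher in Molt-4, and narrowed and vanished genes mostly higher in Jurkat. For widened genes this turned by quantile normalization (245 for Molt-4 and 371 for Jurkat) and with equal totals (211 and 235).

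The largest differences toward Molt-4 were embryonic and fetal globins. HBG2 read 13887, 14018 and 14319 FPKM in treated Molt-4 and 0.03, 0.18 and 0.16 in treated Jurkat, a difference of 13.62 ± 0.06 (limma, adjusted p = 2.11e-19). HBE1, the embryonic epsilon-globin, read 4369, 4454 and 4516 FPKM in treated Molt-4 and 0.15, 0.38 and 0 in treated Jurkat. Its difference was 8.58 without the drug and 11.90 ± 0.09 with it, and the change of 3.32 ± 0.13 was called (adjusted p = 7.04e-09). HBG1 was at 3777 FPKM on average in treated Molt-4 and listed at 0 in every Jurkat library. HBG1 and HBG2 are near-identical copies, as are HBA1 and HBA2, so the split of reads within each pair is uncertain. HBZ, the embryonic zeta-globin, had a slightly smaller difference under the drug, by 0.29 (adjusted p = 0.0108), and read 696, 664 and 670.4 FPKM in untreated Molt-4 and 544, 557 and 564 in treated Molt-4.

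The adult globin genes HBA1 and HBB behaved differently in Jurkat, where treated replicates 2 and 3 lay above treated replicate 1. HBA1, an alpha-globin, read 3.38, 17.6 and 22.6 FPKM in treated Jurkat against 0.35, 1.01 and 0.53 in untreated Jurkat, and its line difference went from 9.84 to 7.38 ± 0.45 while staying called. HBB, the adult beta-globin, read 0, 18.2 and 20.2 FPKM in treated Jurkat replicates 1, 2 and 3 and 27.8, 25.7 and 26.5 in treated Molt-4. Every treated Molt-4 library was above every treated Jurkat library, but replicate 1 of treated Jurkat stood far below the other 2 and the difference was not called (limma, adjusted p = 0.0638). Without treated Jurkat replicate 1, the HBB difference was 0.46 and called (adjusted p = 0.0405), and without replicate 2 or 3 it was 2.59 or 2.66. HBD and HBG1 were at 0 in all treated Jurkat libraries.

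Other red cell genes were also higher in Molt-4. GATA1, the lead erythroid transcription factor, read 151, 159 and 163 FPKM in treated Molt-4 and 0.24, 0.5 and 0.09 in treated Jurkat. KLF1, which activates the globin genes, read 96.2, 97.8 and 97.8 and 0.07, 0.23 and 0.42. Neither gene's treated libraries overlapped between the lines. ALAS2, the first enzyme of haem synthesis in red cells, was at 13.3 FPKM in untreated and 118 in treated Molt-4, and its difference grew by 3.01 (adjusted p = 1.18e-07). In the erythroid and megakaryocyte list 28 of 32 were tested (16 only through Molt-4), 24 were called higher in Molt-4 and 3 higher in Jurkat. In list counts, only through a line means that no treated library of the other line reached 1 FPKM. The number of such genes is not given for every list. Such a gene had to differ, so counts of lists that hold any describe the tested members and support no lean of the whole lists. This covers the erythroid, myeloid, epithelial, B-cell, cytokine, immediate-early, linker histone and class II counts, among others. The background for each list is that of all tested genes, 31.8% called higher in Molt-4 and 37.8% higher in Jurkat. Of the erythroid and megakaryocyte list, 20 genes kept a 2-fold difference.

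PRG2 had the largest gain of any of the 10 leading Molt-4 genes. It encodes the major basic protein of eosinophil granules. Treated Molt-4 read 1477, 1541 and 1537 FPKM and untreated Molt-4 10.4, 9.43 and 9.43, against 0.19, 0 and 0.08 in treated Jurkat. The line difference was 10.45 ± 0.10 with the drug (limma, adjusted p = 1.20e-15) and 3.24 without it, a change of 7.21 ± 0.14. LYZ, the lysozyme gene of myeloid cells, likewise read 63.9, 62.7 and 62.1 FPKM in treated Molt-4 but 0.39, 0.86 and 0.78 in untreated Molt-4, and widened from 0.60 to 5.91 ± 0.14. CD33, a myeloid surface receptor, and CD68, a lysosomal protein of macrophages, kept differences of 3.38 and 2.74. In the myeloid and granulocyte list 11 of 23 were tested (5 only through Molt-4), 8 were called higher in Molt-4 and 2 higher in Jurkat. S100A11 and S100A6, calcium-binding proteins, kept differences of 7.26 ± 0.15 and 7.17 ± 0.08, with at most 0.66 FPKM in any treated Jurkat library. NMU, the neuropeptide neuromedin U, read 265, 268 and 276 FPKM in treated Molt-4 and 0.88, 1 and 0.7 in treated Jurkat. FAM178B differed by 5.69 untreated and 7.35 ± 0.11 treated.

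Epithelial keratins also separated the lines. KRT19 read 68.3, 69.2 and 70.1 FPKM in treated Molt-4 and 0.26, 0 and 0 in treated Jurkat, and KRT8 and KRT18, the filament pair of simple epithelia, differed by 5.77 ± 0.15 and 5.61 ± 0.11. CDH1, the adhesion molecule E-cadherin, read 22.5, 22.7 and 21.8 FPKM in treated Molt-4 against 2.38, 1.12 and 0.79 in untreated Molt-4, so that its difference grew by 3.33 ± 0.25 (adjusted p = 1.33e-06). Of the epithelial list 10 of 15 were tested (5 only through Molt-4), 8 were called higher in Molt-4 and 0 higher in Jurkat. Among B-cell markers 10 of 16 were tested (4 only through Molt-4 and 1 only through Jurkat), 6 were called higher in Molt-4 and 2 higher in Jurkat. CD24, a surface glycoprotein of early B cells, read 134, 132 and 131 FPKM in treated Molt-4 and 7.93, 10.4 and 8.6 in treated Jurkat. CR2, complement receptor 2 and a NOTCH target, differed by 3.14 ± 0.12, and FCRLA, an Fc receptor-like protein of B cells, appeared at 4.15 FPKM. BLK, a B-lineage SRC kinase, was the 2-fold exception and lay 2.21 ± 0.13 higher in Jurkat. The part of any other cell population in these differences was not tested.

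Toward Jurkat the largest differences involved genes at 0 or low levels in Molt-4. RNF212, a factor of meiotic crossing-over, read 39, 35.8 and 40.4 FPKM in treated Jurkat and was listed at 0 in all 6 Molt-4 libraries, a difference of 5.30 ± 0.08 (limma, adjusted p = 8.60e-14). TSPYL5, ADCYAP1 (the neuropeptide PACAP) and BARHL2 (a homeobox factor) were likewise listed at 0 in all treated Molt-4 libraries and averaged 20.8, 21.2 and 11.9 FPKM in treated Jurkat. MYO7B, an unconventional myosin, read 496, 474 and 562 FPKM in untreated and 123, 118 and 127 in treated Jurkat, against 2.52, 2.15 and 2.05 in treated Molt-4. Its difference went from 6.77 to 5.25 ± 0.10 and stayed among the largest.

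PMEPA1, which dampens TGF-beta signalling, differed by 4.77 ± 0.25, FBLN2, a matrix glycoprotein, by 4.38 ± 0.12 and MBP, myelin basic protein, by 4.30 ± 0.13. SKAP1, an adaptor that links the T-cell receptor to integrin activation, read 20, 18.9 and 20 FPKM in treated Jurkat and 0.43, 0.43 and 0.29 in treated Molt-4. APP, the amyloid precursor protein, was at 2.9 FPKM in untreated and 24.9 in treated Jurkat, and at 0.327 and 1.09 in Molt-4. The APP difference grew from 1.58 to 3.69 ± 0.25, and the change was called (adjusted p = 8.27e-04). Of the 10 Jurkat genes named here, all kept their 2-fold difference.

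NOTCH1 and NOTCH3, 2 of the receptors whose cleavage releases a transcription activator, differed between the lines in opposite directions, and both differences were smaller under chidamide. NOTCH1 read 81.6, 75.1 and 75.1 FPKM in untreated Molt-4 and 22.5, 22.2 and 17.6 in untreated Jurkat, but 16.8, 18.1 and 16.6 and 14.5, 14.1 and 13.4 with chidamide. The difference narrowed from 1.85 to 0.27 ± 0.09 (limma, adjusted p = 0.0143), by a change of 1.58 ± 0.12 (adjusted p = 1.95e-06). The small remaining NOTCH1 difference was not called with equal totals (0.14, adjusted p = 0.185), without treated Jurkat replicate 3 (adjusted p = 0.0515) or without treated Molt-4 replicate 2 (adjusted p = 0.0549). NOTCH3 was higher in Jurkat, at 26.9, 26.8 and 27.5 FPKM against 6.86, 5.32 and 5.23, and its difference was 2.05 ± 0.13 with and 3.16 without the drug. In treated Molt-4 the protease gene ADAM10, which makes the first cut in NOTCH receptors, read 274, 278 and 282 FPKM against 552, 572 and 542 in treated Jurkat. Without the drug it differed by only 0.26 in the other direction. PSEN2, a presenilin of the later cut, averaged 7.96 FPKM in treated Molt-4 and 0.123 in treated Jurkat, and MAML2, a coactivator, differed by 1.31 ± 0.11. Of the receptors, ligands and processing genes 26 of 29 were tested (3 only through Molt-4 and 1 only through Jurkat), 10 were called higher in Molt-4 and 10 higher in Jurkat, and the median difference was -0.03, a median that became 0.05 by median of ratios.

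The NOTCH target genes split by member. HES1 and HES4 encode basic helix-loop-helix repressors that NOTCH activates through the DNA-binding protein RBPJ, and their promoters are shown because the 2 genes differ between the lines in opposite directions. The sequences are the 250 bases before the start site on the coding strand, from RefSeq on GRCh38.p14. Capitals mark TGGGAA, the core of the RBPJ motif, the CCAAT box and the GC box with the letters GGGCGG, each searched on both strands, so that a match on the other strand shows as its reverse complement.
HES1: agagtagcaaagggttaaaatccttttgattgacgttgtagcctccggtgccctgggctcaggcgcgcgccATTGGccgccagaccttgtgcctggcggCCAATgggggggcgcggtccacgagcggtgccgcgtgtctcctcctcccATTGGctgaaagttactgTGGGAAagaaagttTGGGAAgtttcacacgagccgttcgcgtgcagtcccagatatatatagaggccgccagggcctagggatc
HES4: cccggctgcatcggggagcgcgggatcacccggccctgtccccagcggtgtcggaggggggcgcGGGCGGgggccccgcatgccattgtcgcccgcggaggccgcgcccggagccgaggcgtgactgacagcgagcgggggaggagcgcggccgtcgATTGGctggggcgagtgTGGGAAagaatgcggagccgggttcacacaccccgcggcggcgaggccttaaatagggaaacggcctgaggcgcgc
The HES1 window is chr3:194135898-194136147 on the plus strand and the HES4 window chr1:1000098-1000347 on the minus strand. HES1 holds TGGGAA at 84 and 70 bases before the start, and HES4 once, at 76. Of 27305 RefSeq promoters of this length, 21.1% hold TGGGAA on either strand, 33% CCAAT and 42.3% GGGCGG. The matches describe letters and say nothing of binding here.

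HES1 read 40, 45.1 and 42 FPKM in treated Molt-4 and 1.08, 1.92 and 1.86 in treated Jurkat, a difference of 4.06 ± 0.13 (limma, adjusted p = 6.16e-11) that was 4.0 without the drug. HES4 ran the other way, at 11, 13.9 and 14.3 in treated Molt-4 and 78.3, 81.7 and 89.9 in treated Jurkat. The HES4 difference was 4.52 untreated and 2.59 ± 0.11 treated, a change of 1.93 ± 0.16 (adjusted p = 3.09e-06). DTX1, a ubiquitin ligase of the pathway, lay 2.11 ± 0.14 higher in Jurkat, and NRARP, its feedback inhibitor, 2.06 ± 0.13 higher in Molt-4. HEY1, another helix-loop-helix target, read 5.13, 6.21 and 8.65 FPKM in treated Jurkat and 5.23, 3.89 and 3.82 in treated Molt-4. These libraries overlapped, and the HEY1 difference of 0.51 ± 0.19 (adjusted p = 0.0269) was not called without treated Jurkat replicate 3 (adjusted p = 0.126), without treated Molt-4 replicate 2 (0.0813) or 3 (0.0862), with a pseudocount of 0.1 (0.0976) or by median of ratios (0.0571). IL7R, the interleukin-7 receptor, was at 6.99 FPKM in treated Jurkat and 2.78 in treated Molt-4, and its difference was 2.66 untreated and 1.10 ± 0.17 treated. Of the NOTCH1 target list 19 of 22 were tested, 9 were called higher in Molt-4 and 9 higher in Jurkat, and the median difference was -0.16, with 9 keeping a 2-fold difference. PTCRA, a NOTCH target that pairs with the beta chain in the pre-T-cell receptor, was outside the rule, at 4.75, 5.57 and 7.2 FPKM in untreated Jurkat and 0.07, 0.07 and 0 in treated Jurkat.

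MYC, the growth regulator downstream of NOTCH1, read 161, 165 and 166 FPKM in treated Jurkat and 196, 196 and 194 in treated Molt-4. The difference of 0.25 ± 0.08 was called (adjusted p = 0.0134) and amounted to well under 2-fold, and with equal totals it was not (0.11, adjusted p = 0.256). Among MYC-activated growth genes 38 of 41 were tested, 15 were called higher in Molt-4 and 3 higher in Jurkat, and the median difference was 0.16. With equal totals the calls were 10 and 10 and the median 0.02, so the lean to Molt-4 was not seen on that scale. Without the drug the counts as deposited were 10 and 13. TFRC, the transferrin receptor for iron uptake, read 461, 427 and 459 FPKM in treated Molt-4 against 113, 117 and 110.1 in treated Jurkat and kept a difference of 1.98 ± 0.12. POLR3G, a subunit of RNA polymerase III, appeared in the treated comparison, at 26.8 FPKM in treated Molt-4 and 12.1 in treated Jurkat. The differences of RRS1 and NOP16, ribosome assembly factors, stood at 1.07 and 1.00. Ribosomal protein genes gave 41 calls for Molt-4 and 10 for Jurkat among 74, with a median of 0.20. After quantile normalization the median was -0.09, with 18 and 34 calls.

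The transcription factors of T-ALL differed between the lines by member. LYL1, a helix-loop-helix leukaemia gene, read 56.6, 60 and 58.6 FPKM in treated Molt-4 and 1.24, 1.73 and 0.94 in treated Jurkat, and ERG, an ETS factor, 24.8, 22.8 and 23.5 and 0.5, 0.47 and 0.48. LMO2, the partner of TAL1 and LYL1, read 39.8, 43.5 and 43.4 and 2.54, 1.56 and 2.01. In each of these the treated lines did not overlap, and the differences were 4.70 ± 0.12, 4.06 ± 0.10 and 3.84 ± 0.11. The LMO2 difference was larger without the drug, at 5.23, as treated Jurkat stood at 2.04 against 0.0533 FPKM untreated. TAL1 was higher in Jurkat by 2.02 ± 0.18, at 91.4, 106 and 87.2 against 26.5, 20.6 and 20.7 FPKM. LMO1 was outside the rule: it read 6.57, 7.63 and 6 FPKM in untreated Jurkat and 1.02, 0.67 and 1.7 in treated Jurkat, and was listed at 0 in all 6 Molt-4 libraries. HHEX, a homeobox factor, kept a difference of 3.87 ± 0.12. Of the list 16 of 28 were tested, 9 were called higher in Molt-4 and 6 higher in Jurkat, and the median difference was 0.38. In this list 8 members kept a 2-fold difference. GATA3, a master factor of T-cell commitment, read 132, 152 and 159.8 and 187, 155 and 163 FPKM and its difference of 0.19 ± 0.13 was not called (adjusted p = 0.206).

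Called commitment factors went in both directions. RORA, a nuclear receptor, and KLF2, a zinc-finger factor of T-cell quiescence, lay 2.33 and 1.78 higher in Jurkat, while IKZF4 and TOX2 lay 2.35 and 2.10 higher in Molt-4. TOX2, an HMG-box factor, read 47.6, 49.4 and 50.2 FPKM in treated Molt-4 against 0.87, 0.52 and 1.36 untreated, and 10.9, 10 and 11.2 in treated Jurkat, so that its difference widened from 0.44. Of this list 31 of 34 were tested, 9 were called higher in Molt-4 and 13 higher in Jurkat, and the median difference was -0.11. These calls are 29.0% and 41.9% of the tested members, near the 31.8% and 37.8% of all genes. Among the immature thymocyte genes 25 of 27 were tested, 11 were called higher in Molt-4 and 12 higher in Jurkat, and the median difference was -0.20. Of these 11 kept a 2-fold difference. CD34 and NPTX2 were higher in Molt-4, at 4.20 and 4.27. The recombination genes RAG1 and RAG2, which cut antigen receptor loci, read 1.93, 2.04 and 1.76 and 4.43, 5.87 and 5.6 FPKM in treated Molt-4 against 4.96, 4.87 and 4.54 and 14.2, 12.7 and 12.2 in treated Jurkat. For RAG1 the direction was reversed, from 1.23 higher in Molt-4 to 0.99 ± 0.07 higher in Jurkat, and the RAG2 difference of 1.16 ± 0.12 appeared. CD1B, an antigen-presenting molecule of cortical thymocytes, lost its difference: 88.8, 89.7 and 83.8 FPKM in untreated Molt-4 and 28.7, 29.2 and 38 in untreated Jurkat became 8.66, 5.63 and 7.47 and 9.28, 7.74 and 8.17. The tumour suppressor list gave 7 and 12 calls of 26. In it WT1, a zinc-finger transcription factor, lay 2.06 higher in Molt-4, and PIK3R1, a regulator of PI3-kinase signalling, 1.04 higher in Jurkat.

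More T-cell receptor signalling genes were called higher in Jurkat than in Molt-4. Of the list 37 of 38 were tested, 9 were called higher in Molt-4 and 21 higher in Jurkat, and the median difference was -0.43, beside a median without the drug of -0.47. The calls are 24.3% and 56.8% of the members tested, against 31.8% and 37.8% of all genes. LCK, the kinase that starts receptor signalling, read 323, 328 and 333 FPKM in treated Jurkat and 119.9, 123 and 119 in treated Molt-4, a difference of 1.43 ± 0.04 (limma, adjusted p = 1.25e-11). SYK, a related kinase of immature lymphocytes, was at 12.6, 12.1 and 12.6 and 1.04, 0.26 and 0.05. TEC and SOS1, a kinase and a RAS activator, lay 1.60 and 1.55 higher in Molt-4. Of the surface and costimulatory receptors 21 of 31 were tested, 7 were called higher in Molt-4 and 7 higher in Jurkat, and the median difference was -0.10. CD44, a hyaluronan receptor, read 43, 44.6 and 48.1 FPKM in treated Molt-4 and 0.14, 0.24 and 0.19 in treated Jurkat, with a difference of 5.28 ± 0.10. CD28, the main costimulatory receptor, was at 68.4, 66.5 and 70.2 in treated Jurkat and 13.6, 17 and 14.2 in treated Molt-4. Its difference was 4.35 without the drug, where Molt-4 averaged 0.667 FPKM. CD2 and SIT1 lay 1.88 and 1.81 higher in Jurkat. CD4, the helper co-receptor, reversed: 7.55, 8.06 and 8.79 FPKM in untreated Jurkat and 2.8, 2.59 and 4.21 in untreated Molt-4, then 3.8, 3.86 and 4 and 7.18, 7.95 and 7.81 with chidamide. Cytotoxic genes gave 3 and 5 calls of 10, with PRF1 (perforin) 3.28 higher in Molt-4 and CTSW (a cathepsin) 2.49 higher in Jurkat.

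Among the differences that appeared under chidamide, 6 Molt-4 genes had the largest change. MFAP2, a microfibril component, read 17.9, 18.5 and 14.4 FPKM in treated Molt-4 and 0.12, 0.09 and 0.17 in treated Jurkat, from 0.17 and 0.173 without the drug. SERPING1, the inhibitor of complement C1, read 12, 12 and 10.7 in treated Molt-4 and at most 0.18 in treated Jurkat. TINAGL1, C1orf116 and CGB2 gave 10.9, 13.2 and 10.6 FPKM in treated Molt-4, and at most 0.19 in any treated Jurkat library. CGB2 belongs to a cluster of near-identical chorionic gonadotropin genes, so its reads cannot be assigned with certainty. C11orf74 differed: treated Jurkat read 0.88, 1.33 and 2.19 FPKM against 13.2, 11.2 and 13.2 untreated, and treated Molt-4 26.7, 22.9 and 20.7.

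In Jurkat, FRG2B appeared with 15, 12.2 and 15 FPKM against 0.32, 0.1 and 0.26 in treated Molt-4, a change of 3.54 ± 0.16 (adjusted p = 2.39e-08), and it too has near-identical copies. NCAM1, the neural cell adhesion molecule CD56, read 28.3, 25.1 and 22.4 in treated Jurkat and 5.25, 4.23 and 5.25 in treated Molt-4, and at most 0.17 FPKM without the drug in both lines. LAIR2, a soluble collagen receptor, and SCG2, a secretory granule protein, stood at 12.6 and 10.4 FPKM in treated Jurkat and 1.07 and 2.74 in treated Molt-4. DAPL1 and GGACT completed the 6, at changes of -1.97 and -1.57.

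Where differences vanished, SGK1 showed the pattern most plainly for a Molt-4 gene. This serum- and glucocorticoid-induced kinase read 8.43, 9.1 and 7.7 FPKM in untreated Molt-4 and 1.05, 0.74 and 1.01 in untreated Jurkat, then 36.3, 44.1 and 41.4 and 40.2, 41.2 and 45.2 with chidamide. The treated libraries overlapped and the difference of 0.06 ± 0.10 was not called (limma, adjusted p = 0.614), while the change of 2.34 ± 0.14 was (adjusted p = 2.12e-07). PLXNB2, a semaphorin receptor, averaged 7.64 and 7.8 FPKM under the drug, and OVOS2 3.41 and 3.26. RGMA, a guidance protein, and ADD2, beta-adducin of the membrane skeleton, had treated differences of 0.28 ± 0.14 and 0.47 ± 0.21. The ADD2 difference was called under 5 other settings, among them the fit on the 6 treated libraries alone (adjusted p = 7.86e-05), and that of RGMA by median of ratios (adjusted p = 0.0495).

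For Jurkat genes, TLE2 went furthest. TLE2, a Groucho-family corepressor, read 33.9, 35.5 and 32.9 FPKM in untreated Jurkat and 2.29, 1.31 and 1.16 in untreated Molt-4, then 43.1, 44.4 and 39.6 and 43.6, 46.6 and 47.3 with chidamide. Its difference changed by 3.90 ± 0.18 (adjusted p = 3.13e-08), and the treated difference of 0.11 ± 0.13 was not called. DBNDD2 averaged 59.2 and 5.95 FPKM untreated and 15.9 and 15.6 treated. CD79A, a chain of the B-cell receptor, averaged 11.6 and 13.3 in the treated lines, and its treated difference was called by median of ratios (adjusted p = 0.0284) and quantile normalization (adjusted p = 0.0431). HLA-B read 313, 243 and 301 FPKM in treated Jurkat and 166, 201 and 209 in treated Molt-4, against 49, 41.1 and 59.4 and 2.29, 2.21 and 7.21 untreated. The treated HLA-B difference of 0.57 ± 0.29 (adjusted p = 0.0983) was called on the 6 treated libraries alone (adjusted p = 0.0022), with equal totals (0.0402), with a replicate block (0.0467) and without untreated Molt-4 replicate 3 (0.0032). The U3 RNA copies SNORD3B-1 and SNORD3B-2 are near-identical, and the call of their change was lost under several settings.

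Among the genes that turned toward Molt-4, CXorf49B and CPXM1 had the largest changes named here, 5.89 and 5.85. CPXM1 encodes a carboxypeptidase-like protein. Untreated Jurkat read 17.7, 18.4 and 21.3 FPKM and untreated Molt-4 0.36, 0.62 and 0.52, while treated Jurkat read 17.8, 17.6 and 18.2 and treated Molt-4 77.4, 79.5 and 82.4. The treated difference was 2.10 ± 0.09 toward Molt-4 and the change 5.85 ± 0.12 (limma, adjusted p = 4.03e-11). PRSS2, a trypsinogen with near-identical copies, read 73, 80.4 and 76.6 FPKM in treated Molt-4 and 3.03, 4.95 and 2.47 in treated Jurkat, from 0.593 and 3.99. CXorf49B, one of a near-identical pair, was listed at 0 in all untreated Molt-4 libraries and read 6.18, 4.85 and 7.59 in treated Molt-4, with 24.4 and 1.93 FPKM on average in untreated and treated Jurkat. SMAD6, an inhibitor of BMP signalling, ended at 8.04 and 5.8 FPKM, a difference of 0.42 ± 0.12 that was not called with equal totals (adjusted p = 0.0524). HR, a nuclear corepressor, ended 1.60 ± 0.11 higher in Molt-4. MIR6843 stands for reads on a precursor locus within other transcripts and is uncertain.

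Toward Jurkat the turned genes were fewer. WIPI1, an autophagy protein, read 8.4, 7.4 and 9.25 FPKM in untreated Molt-4 and 1.13, 2.11 and 3.23 in untreated Jurkat, then 9.68, 9.33 and 9.68 and 15.4, 15.9 and 13.8. Its treated difference was 0.60 ± 0.19 toward Jurkat (adjusted p = 0.013). RGS2, a brake on G-protein signalling, ended 1.25 ± 0.17 higher in Jurkat, and SH3BP5, PRR5L (a component of mTOR complex 2) and PHLDB2 ended 0.34, 0.79 and 0.59 higher. MIR612, whose reads lie within the long RNA NEAT1, read 1055 FPKM in treated Jurkat and 398 in treated Molt-4, and it is uncertain for that reason.

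**Figure D4:**
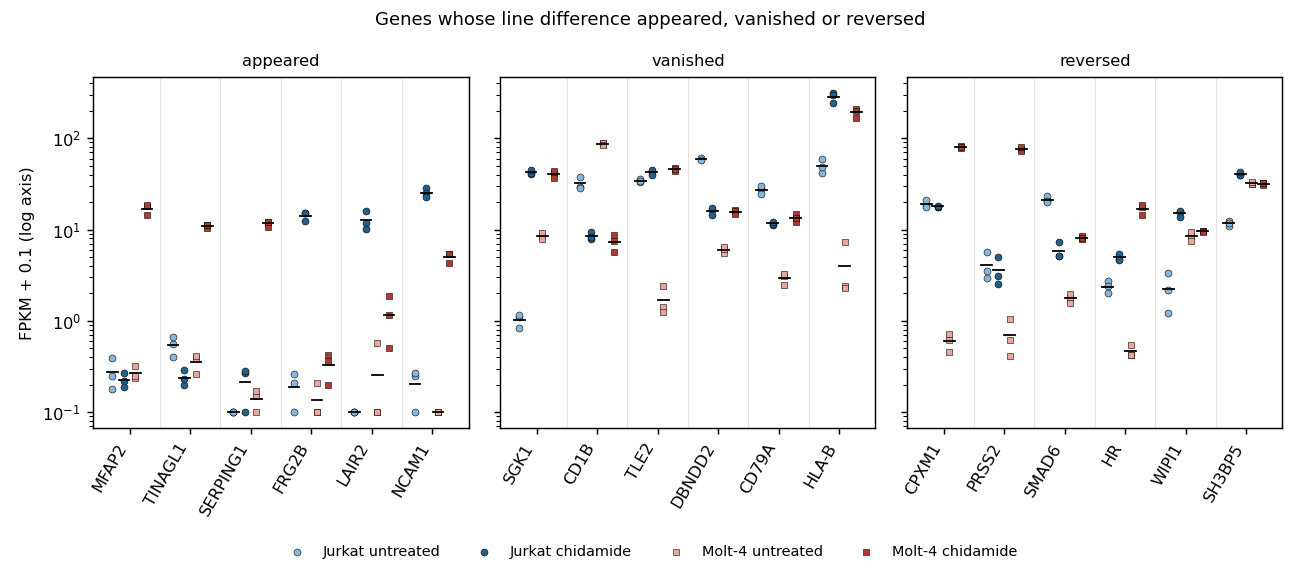
FPKM + 0.1 of single genes on a log axis, with 1 point per library, coloured by group, and a short line at each group mean, for genes whose line difference appeared, vanished or turned. TLE2 and SGK1 are level between the lines under chidamide, MFAP2 is high only in treated Molt-4, and CPXM1 turns from higher in Jurkat to higher in Molt-4.

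Most called antigen presentation genes were higher in Jurkat, and the calls of all tested genes lean the same way. HLA-C and HLA-F, class I chains, lay 1.91 ± 0.05 and 2.45 ± 0.16 higher in Jurkat. HLA-E, a ligand of natural killer receptors, went the other way with 1.53 ± 0.12. These genes are highly polymorphic and share long stretches of sequence, so the assignment of their reads is uncertain. Of the class I list 17 of 18 were tested, 4 were called higher in Molt-4 and 9 higher in Jurkat, and the median difference was -0.37. These calls are 23.5% and 52.9% of the members tested, against 31.8% and 37.8% of all genes. Class II genes HLA-DQB1, HLA-DRB1 and HLA-DRA lay 2.57, 2.37 and 1.34 higher in treated Jurkat, where they averaged 9.22, 4.51 and 4.88 FPKM. Of the class II list 12 of 16 were tested (3 only through Jurkat), 3 were called higher in Molt-4 and 6 higher in Jurkat, and the median difference was -0.39. The class II calls are 25.0% and 50.0% of the members tested. The members that passed only through Jurkat had to differ, so these shares support no lean of the whole list. Interferon-stimulated genes gave 14 calls in each direction among 33, and SAMHD1 and MX1 were higher in Molt-4, XAF1 in Jurkat, by 2.66, 2.51 and 2.49.

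Among tested cytokine signalling genes, more were called higher in Molt-4 (45.7%) than in Jurkat (22.9%), beside 31.8% and 37.8% of all genes. STAT5A, a transcription factor downstream of cytokine receptors, read 629, 653 and 613 FPKM in treated Molt-4 and 36.2, 38 and 36.4 in treated Jurkat, and the difference grew from 3.0 to 4.06 ± 0.05 (adjusted p = 4.94e-07). CISH and SOCS2, feedback inhibitors of that pathway, kept differences of 2.83 ± 0.11 and 2.69 ± 0.07, and IL27RA of 2.28 ± 0.08. Of the list 35 of 37 were tested (4 only through Molt-4), 16 were called higher in Molt-4 and 8 higher in Jurkat, and the median difference was 0.17. Genes that passed only through Molt-4 had to differ, so these shares support no lean of the whole list. Without the drug the calls were 18 and 10 and the median 0.52, and with equal totals the treated median was 0.06. Among chemokine genes 12 of 26 were tested (1 only through Molt-4 and 1 only through Jurkat), 7 were called higher in Molt-4 and 4 higher in Jurkat, and the median difference was 0.28. CCR9, the gut-homing receptor, read 81.9, 81.9 and 78.5 FPKM in treated Molt-4 and 0.56, 0.91 and 0.51 in treated Jurkat. CXCR4, the receptor for CXCL12, lay 1.56 ± 0.05 higher in Jurkat, where it averaged 312 FPKM treated and 144 untreated, so that an untreated difference of 0.55 widened. CX3CR1, the fractalkine receptor, lay 2.44 higher in Jurkat, and CCRL2 appeared 2.01 higher in Molt-4.

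Adhesion genes had more changes of the line difference toward Molt-4 than toward Jurkat. Of 30 tested integrin and adhesion genes, 20 had a called change toward Molt-4 and 1 toward Jurkat, beside 20.1% and 12.1% of all genes. Under the drug itself, 11 of the 30 were called higher in Molt-4 (36.7%) and 13 higher in Jurkat (43.3%), with a median difference of -0.16. Of all genes, 31.8% and 37.8% were called. The tetraspanins CD9, CD151 and CD63 and the adhesion molecule ICAM1 lay 3.35, 2.14, 1.68 and 1.84 higher in treated Molt-4. Of the markers of stroma and vessels 5 of 15 were tested, 1 were called higher in Molt-4 and 3 higher in Jurkat, and the median difference was -0.45. THY1 read 99.8, 94.4 and 110.2 FPKM in treated Jurkat and 27, 25.2 and 34 in treated Molt-4, while untreated Molt-4 averaged 0.03. PDGFRB, a growth factor receptor, appeared higher in Molt-4 by 1.16, and PECAM1 narrowed from 2.0 to 0.45 ± 0.10.

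Among tested immediate-early genes, more were called higher in Molt-4 (54.2%) than in Jurkat (20.8%), beside 31.8% and 37.8% of all genes. The 4 members that passed the filter only through Molt-4 had to differ, so these shares support no lean of the whole list. EGR1, an early growth response factor, read 85.6, 85.6 and 89 FPKM in treated Molt-4 and 0.57, 0.39 and 0.59 in treated Jurkat, and its difference of 5.86 ± 0.14 had been 3.40 without the drug. DUSP6, a phosphatase that dampens ERK signalling, read 18.5, 20.2 and 18.1 in treated Molt-4 against 2.13, 2.5 and 1.53 untreated, and JUNB, an AP-1 factor, 83.4, 84.9 and 85 against 20.6, 20.4 and 22.2 in treated Jurkat. FOSL1 kept a difference of 2.04 ± 0.12. Of the list 24 of 30 were tested (4 only through Molt-4), 13 were called higher in Molt-4 and 5 higher in Jurkat, and the median difference was 0.48.

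Most cell cycle genes differed by less than 2-fold or were not called. Of the replication list 40 of 40 were tested, 14 were called higher in Molt-4 and 10 higher in Jurkat, and the median difference was 0.10. Of the mitosis list 33 of 33 were tested, 13 were called higher in Molt-4 and 9 higher in Jurkat, and the median difference was 0.06. With equal totals the replication and mitosis medians were -0.04 and -0.08, and the calls for Molt-4 and Jurkat turned to 12 and 13 and to 8 and 14. TK1, thymidine kinase, was the 2-fold exception among replication genes and lay 1.75 ± 0.06 higher in Molt-4. TYMS, RPA1, UBE2C, NUF2, CCNA2, PTTG1 and MCM3 differed by 0.64 to 0.94 in size. Of the cyclins and CDK inhibitors 19 of 21 were tested, 8 were called higher in Molt-4 and 8 higher in Jurkat, and the median difference was -0.02. CCND1 read 19.5, 19.7 and 25.6 FPKM in treated Molt-4 and 2.64, 3.9 and 2.03 in treated Jurkat, and its difference was 4.63 without the drug and 2.57 ± 0.16 with it. CDKN1A, the CDK inhibitor p21, read 52, 50.1 and 50.2 FPKM in treated Jurkat and 17.4, 21 and 21.3 in treated Molt-4, from 1.67, 1.08 and 1.13 and 0.59, 0.63 and 0.69 untreated. Its difference widened to 1.31 ± 0.11 (adjusted p = 4.16e-07), and CCNE1 and CDK6 differed by 1.03 and 0.84 in opposite directions. The untreated CDKN1A levels lie near 1 FPKM, where the log2(FPKM + 1) scale understates a difference. How much of the widening follows from the scale was not tested.

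More pro-apoptotic genes were called higher in Jurkat (59.1%) than in Molt-4 (22.7%), beside 37.8% and 31.8% of all genes, which lean the same way. By median of ratios the calls for Molt-4 and Jurkat were 6 and 9. Of the pro-apoptotic list 22 of 25 were tested, 5 were called higher in Molt-4 and 13 higher in Jurkat, and the median difference was -0.36. TNFRSF10B, a death receptor for TRAIL, lay 1.33 ± 0.11 higher in Jurkat and TNFRSF10A, its partner, 1.49 ± 0.15 higher in Molt-4. BIK and CASP8 lay 1.42 and 1.24 higher in Jurkat. Of the anti-apoptotic list 9 of 11 were tested, 5 were called higher in Molt-4 and 3 higher in Jurkat, and the median difference was 0.38. BCL2L1, which encodes BCL-XL, read 108, 116 and 112 FPKM in treated Molt-4 and 34.2, 35.5 and 37.9 in treated Jurkat, and CFLAR, an inhibitor of caspase-8 activation, lay 1.45 ± 0.11 higher in Molt-4. Both differences widened under the drug, from 0.55 and 0.33. BIRC5, survivin, lay 0.47 higher in Molt-4.

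The drug's own targets differed by less than 2-fold between the lines. HDAC1 and HDAC2 read 310.0, 318 and 322 and 229, 228 and 221 FPKM in treated Jurkat and 268, 259 and 271 and 167, 157 and 159 in treated Molt-4. Both were higher in Jurkat, by 0.25 ± 0.06 and 0.49 ± 0.05, and HDAC3 was higher in Molt-4 by 0.34 ± 0.05 while HDAC10 was higher in Jurkat by 0.75 ± 0.12. HDAC9, a class IIa enzyme, read 23.7, 29.6 and 19.1 in treated Jurkat and 2.33, 2.67 and 3 in treated Molt-4. HDAC5, another class IIa enzyme, appeared higher in Molt-4 by 1.08 ± 0.07. HDAC8 lay 0.50 higher in Jurkat. Of the histone deacetylase genes 18 of 18 were tested, 3 were called higher in Molt-4 and 9 higher in Jurkat, and the median difference was -0.26. Most called linker and replacement histones were higher in Molt-4. Of the list 15 of 20 were tested, 11 were called higher in Molt-4 and 3 higher in Jurkat, and the median difference was 1.23. HIST1H1C, a linker histone, read 628, 670.5 and 664 FPKM in treated Molt-4 and 14.7, 12.5 and 16.7 in treated Jurkat, and HIST1H2BK, HIST1H4H and HIST2H2BE lay 6.54, 5.09 and 2.48 higher. Metallothionein MT2A lay 1.56 ± 0.10 higher in Jurkat and MT1G 4.52 ± 0.20 higher in Molt-4, while MT1A appeared in Molt-4 and was listed at 0 in all Jurkat libraries. The metallothionein list also holds MTF1 (their regulator) and the transporter gene SLC30A1. Of its 8 tested members 3 were called higher in Molt-4 and 4 in Jurkat, MTF1 among the latter.

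Other groups were mixed. Of the neuronal genes 25 of 40 were tested (3 only through Molt-4 and 5 only through Jurkat), 8 were called higher in Molt-4 and 10 higher in Jurkat, and the median difference was -0.10. Of these 6 appeared under the drug. NEFH, a neurofilament, kept a difference of 4.09 ± 0.08 toward Molt-4, SYP, a synaptic vesicle protein, widened to 2.22 ± 0.09 toward Molt-4, and SNAP25 lay 2.02 ± 0.11 higher in Jurkat with Molt-4 listed at 0. Of the HOX genes 17 of 39 were tested (2 only through Molt-4 and 3 only through Jurkat), 7 were called higher in Molt-4 and 7 higher in Jurkat, and the median difference was 0.20, a median that was -0.07 by quantile normalization. HOXA7 read 9.01, 11.8 and 9.63 FPKM in treated Jurkat and was at 0 in treated Molt-4, HOXB2 and HOXB9 read 12.4, 12.3 and 15.1 and 14.9, 14.7 and 15.4 in treated Molt-4, and HOXC9 differed by 1.57. The HOXB9 difference went from 4.83 to 2.59 ± 0.10 while staying 2-fold. Collagens and laminins gave 5 and 4 calls of 13, with LAMB2, COL9A3 and COL18A1 higher in Molt-4 by 3.72, 3.15 and 2.63 and COL27A1 higher in Jurkat by 2.06.

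Metabolic genes showed single large differences in lists with medians near that of all genes. PFKM, the muscle form of phosphofructokinase, read 61, 67.1 and 83.6 FPKM in treated Molt-4 and 3.8, 4.92 and 4.88 in treated Jurkat, and HK1, hexokinase 1, differed by 2.50 ± 0.06. SLC2A3, a glucose transporter, lay 1.93 higher in Molt-4 and PFKFB3 1.24 higher in Jurkat. Of the glycolysis genes 22 of 23 were tested, 8 were called higher in Molt-4 and 7 higher in Jurkat, and the median difference was 0.05, a median that was -0.09 with equal totals. FADS2, a fatty acid desaturase, read 235, 235 and 248 FPKM in treated Jurkat and 36.8, 30.1 and 34.2 in treated Molt-4. ELOVL6 and CYP51A1, enzymes of fatty acid and sterol synthesis, lay 2.38 and 2.32 higher in Molt-4, and LSS 1.46 higher in Jurkat. Of this list 23 of 25 were tested, 5 were called higher in Molt-4 and 10 higher in Jurkat, and the median difference was -0.04, a median that was 0.05 by median of ratios. CBS, which makes cystathionine, read 72.8, 78.5 and 73 and 11.8, 16.5 and 15.1 in treated Molt-4 and Jurkat, BCAT1 lay 1.38 higher in Molt-4, and CTH 1.04 higher in Jurkat. Of the amino acid and one-carbon genes 22 of 24 were tested, 6 were called higher in Molt-4 and 6 higher in Jurkat, and the median difference was 0.10, a median that was -0.04 with equal totals. RPS23 lay 1.22 ± 0.05 higher in Molt-4 and RPS26 0.81 ± 0.05 higher in Jurkat among ribosomal protein genes, with RPL14 and RPL13A at 0.96 and 0.89.

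**Figure D5:**
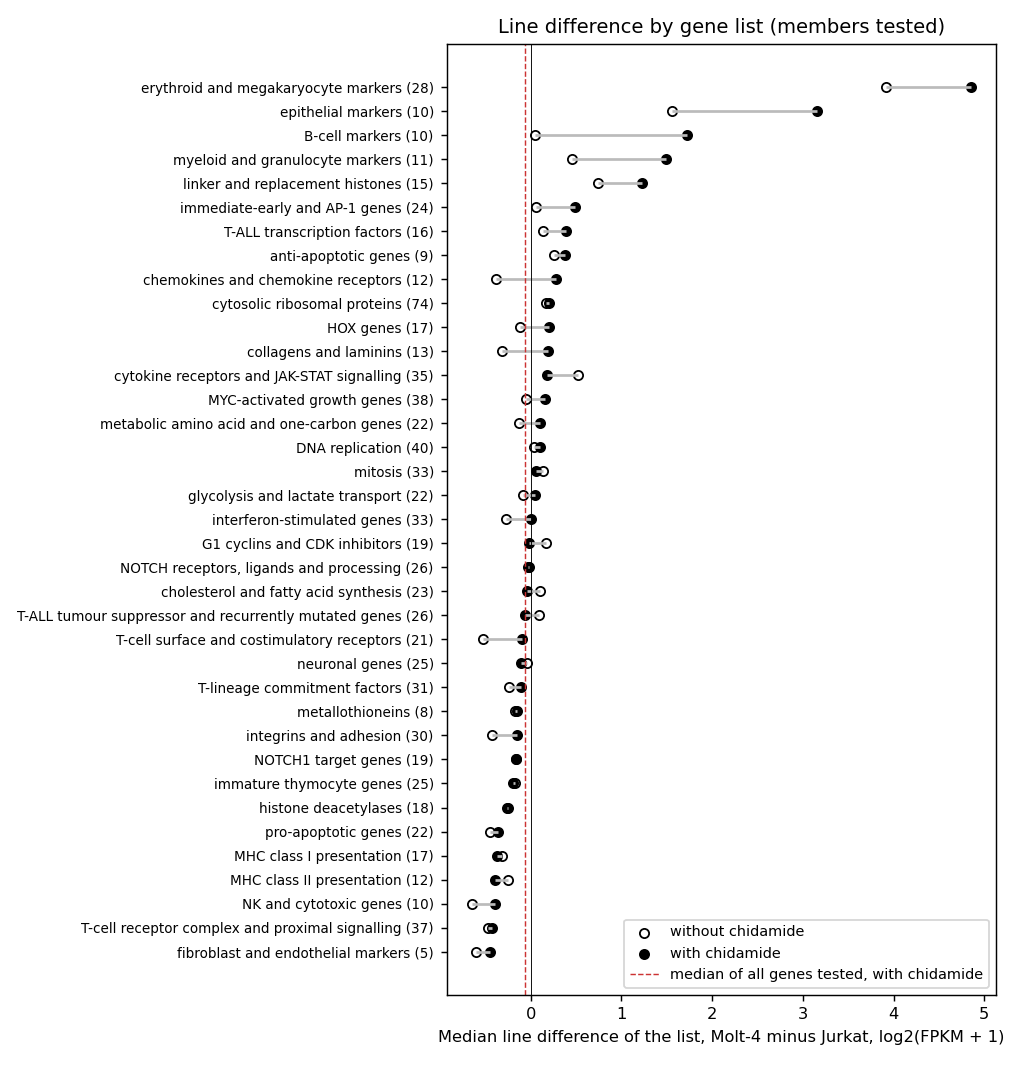
Median line difference (Molt-4 minus Jurkat, log2(FPKM + 1)) of the tested members of each gene list, without (open points) and with (filled points) chidamide. The dashed line is the median of all 13597 tested genes with chidamide. The erythroid and epithelial lists lie farthest toward Molt-4 in both conditions. Among the treated points the fibroblast and endothelial list and the T-cell receptor list lie farthest toward Jurkat. Many tested erythroid, epithelial, B-cell and myeloid markers passed the filter only through Molt-4, so the place of their points follows in part from the filter.

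A last group of 243 genes reached 1 FPKM in 3 of the 12 libraries without meeting the rule in the treated ones. Of these, 147 had a called difference without the drug, and 59 of all 243 had one with it. SCARNA16, a small RNA of Cajal bodies, read 89.97, 80.86 and 81.35 FPKM in untreated Jurkat and was listed at 0 in the other 9 libraries. TNFRSF4, the costimulatory receptor OX40, read 20.59, 16.34 and 9.72 in untreated Jurkat and 0.5, 0.83 and 0.32 in treated Jurkat, with at most 1.23 in any Molt-4 library. SERPINB2, a plasminogen activator inhibitor, was listed at 0 in all 6 Molt-4 libraries and read 3, 3.08 and 3.7 in untreated Jurkat. NKAIN4 and the cytokine gene IL4 were seen in untreated Molt-4, at 15.09, 12.59 and 14.22 and at 6.5, 4.09 and 10.09 FPKM, and both were listed at 0 in all 6 Jurkat libraries. In treated Molt-4 NKAIN4 read 0.74, 1.06 and 1.27 and IL4 1.44, 1.12 and 0.31.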

How the data were processed

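Bulk RNA was sequenced from Jurkat and Molt-4 with and without chidamide, 3 libraries a group. The deposited values are FPKM per gene symbol, made by the authors and rounded to 2 decimals. Per the submitters' processing notes, STAR, HTSeq and DESeq2 were used with build hg19, and the order of the steps and the making of FPKM are not given in the sources used here. No counts were used, so the depth is unknown and values carry no counting interval. A check for whole reads found 30.5% of low values within 0.15 of a whole multiple, against 30% for evenly spread values, so reads were not recovered.

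Genes with at least 1 FPKM in 3 of the 6 treated libraries were kept. Values were transformed to log2(FPKM + 1), and limma 3.58.1 in R 4.3.3 (lmFit and eBayes with trend) was fitted to all 12 libraries with 1 mean per group, which leaves 8 residual degrees of freedom. The contrasts were Molt-4 minus Jurkat with chidamide, the same without it, and their difference. P-values were two-sided and adjusted over 13597 genes by Benjamini-Hochberg. On simulated data with 12680 genes, the treated contrast called 40 of 40 genes at a log2 change of -2, 39 of 40 at -1 and 38 of 40 at 1. It called 29 of 40 at -0.5, 30 of 40 at 0.5 and 7 of 12480 unchanged genes. The test of the change called 33 of 40 at -1, 37 of 40 at 1, 20 of 40 at -0.5 and 21 of 40 at 0.5. Changed genes were drawn only from those with higher means, so power for low genes was not tested. All other genes were set equal across the groups, unlike the real data.

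The members and gene lists were chosen with earlier results of these data known. Genes were named by a rule: 20 fixed genes, the 10 largest differences in each direction, the 6 largest changes in each direction among appeared, vanished and reversed genes, the 4 largest in each direction outside the filter, and up to 4 called members of each list. GATA1, KLF1, ALAS2, HBB, RAG1, RAG2 and CD4 were named after their values were seen. Of the symbols 23122 matched RefSeq and 1088 an older symbol. Promoters were found for 78.8% of the tested genes, too few to compare classes, so only single promoters are shown. Genes on the Y chromosome and XIST are not named, and a few genes that the rule names are not reported here. Alternatives covered the pseudocount, the filter, 3 scalings, the libraries fitted, robust empirical Bayes, a replicate block and leaving out each library.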

Additional observations from a re-analysis of the deposited data

Results flagged for a closer look

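Named genes are given here whose line difference changed by at least 2-fold (1 on the log2 scale) between treated and untreated libraries with a called change in limma. Each value is the treated minus the untreated line difference, and positive values mean a shift toward Molt-4. Among genes with a 2-fold difference kept in both conditions, the shifts toward Molt-4 were NOTCH3 1.11, HES4 1.93, IL7R 1.55, HBG2 1.07, HBE1 3.32, HBG1 1.17, PRG2 7.21, FAM178B 1.66, S100A6 1.15, MYO7B 1.52, FBLN2 1.21, CR2 1.59, SYK 1.05, CD44 1.67, CD28 2.23, NPTX2 2.79, CD34 1.37, CTSW 1.04, CD24 1.22, BLK 1.20, CD68 1.13, THY1 3.65, KRT19 1.38, KRT8 1.01, CDH1 3.33, STAT5A 1.07, EGR1 2.46, MT1G 1.36, HIST1H4H 1.86, LAMB2 1.82, CBS 1.23 and ALAS2 3.01. Toward Jurkat they were LMO2 -1.39, HBA1 -2.46, APP -2.11, CX3CR1 -1.10, CCND1 -2.06, TNFRSF10A -1.79, HOXB2 -1.22, HOXB9 -2.24 and CYP51A1 -1.64.

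Among differences that widened, the shifts toward Molt-4 were TOX2 1.66, LYZ 5.31, BCL2L1 1.06, CFLAR 1.12, SYP 1.83, DUSP6 2.90 and JUNB 1.72. Widened differences that shifted toward Jurkat were HLA-DQB1 -1.84, HLA-DRB1 -1.54 and CXCR4 -1.01. For those that appeared, shifts toward Molt-4 were MFAP2 3.98, C11orf74 3.69, TINAGL1 3.59, C1orf116 3.54, SERPING1 3.44, CGB2 3.09, POLR3G 1.21, FCRLA 2.19, PDGFRB 1.03, CCRL2 1.79, HDAC5 1.15 and MT1A 2.21, and shifts toward Jurkat FRG2B -3.54, LAIR2 -2.94, NCAM1 -2.01, DAPL1 -1.97, SCG2 -1.70, GGACT -1.57, HLA-DRA -1.31 and RAG2 -1.08.

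Where the difference narrowed or vanished, shifts toward Molt-4 were TLE2 3.90, SNORD3B-2 3.59, SNORD3B-1 3.36, DBNDD2 3.09, CD79A 3.07, HLA-B 2.94 and PECAM1 1.55, and toward Jurkat NOTCH1 -1.58, ADD2 -2.80, SGK1 -2.34, OVOS2 -1.96, CD1B -1.64, RGMA -1.48 and PLXNB2 -1.43. Where the direction turned, shifts toward Molt-4 were CXorf49B 5.89, CPXM1 5.85, PRSS2 5.78, SMAD6 3.48, MIR6843 3.09, HR 2.86 and CD4 1.96, and toward Jurkat WIPI1 -2.22, PRR5L -1.85, MIR612 -1.83, SH3BP5 -1.74, RGS2 -1.67, PHLDB2 -1.67 and RAG1 -2.23. Outside these classes stood ADAM10 -1.26.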

How the results depend on the processing

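Depth is unknown, so no limit from counting can be set. With a pseudocount of 0.1 in place of 1, 144 differences widened toward Molt-4 and 70 Molt-4 and 252 Jurkat differences vanished. Under that setting 22 turned toward Jurkat, and 274 higher in Molt-4 and 528 higher in Jurkat met no definition. With the filter at 5 FPKM fewer genes were tested: 1128 were at least 2-fold higher in Molt-4, 174 widened and 85 appeared toward Molt-4, 32 appeared toward Jurkat, 17 Molt-4 differences vanished, and 106 and 225 met no definition. By quantile normalization 371 widened and 127 appeared toward Jurkat, 122 Molt-4 and 204 Jurkat differences narrowed, and 84 Jurkat differences vanished. With equal totals without the 7SL genes 127 appeared toward Jurkat. The widened counts for Molt-4 and Jurkat were 245 and 371 by quantile normalization and 211 and 235 with equal totals. The lean of widened genes to Molt-4 was therefore not seen on either scale. The cause of the shifts under the pseudocount and the 2 scalings was not tested. The other counts stayed within 1.5 times their value under these settings, without a filter, with the filter over all 12 libraries, by median of ratios and with robust empirical Bayes. The fit on the libraries of each comparison alone gives no test of the change, so no classes were computed from it.

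Leaving out each of the 12 libraries in turn gave 4061 to 4532 calls higher in Molt-4 and 4787 to 5391 higher in Jurkat, 1744 to 1773 and 1085 to 1131 of them 2-fold. It gave 3785 to 4895 changed differences. The kept counts were 1091 to 1113 and 677 to 721 (Molt-4 and Jurkat), the appeared 221 to 255 and 80 to 101, the vanished 28 to 34 and 106 to 157, and the reversed 39 to 51 and 8 to 15. Same-numbered libraries did not deviate together in the treated groups (residual correlations of 0.02, -0.05 and 0.00) or the untreated ones (-0.03, -0.07 and -0.08), so the numbers were not taken to pair the libraries, although same-numbered treated libraries also share a time label. With the replicate block there were 4281 and 5086 calls, 1750 and 1104 of them 2-fold, and 4137 changed differences. Of the 1803 kept genes, 1802 stayed in their class under the block, as did 299 of 306 that appeared, 154 of 163 that vanished and 57 of 59 that turned. Fewer stayed by quantile normalization, with 1603 kept, 169 that appeared, 92 that vanished and 40 that turned. With a pseudocount of 0.1 these counts were 1801, 206, 155 and 54, and with equal totals 1758, 271, 124 and 46. Of 5370 values of the 211 tested named genes under the alternatives, 5314 kept their direction and side of the threshold, 41 lost a call, 15 gained one and none turned. The 9 genes that lost a call were HEY1, BCL2L2, GGACT, SNORD3B-1, SNORD3B-2, NOTCH1, MYC, SMAD6 and PSAT1.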
